A study of Mus musculus with 4 samples.

Results

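The 10 genes described here are the matrix metalloproteinases Mmp2, Mmp8, Mmp9, Mmp12, Mmp13, Mmp14 and Mmp19 and the tissue inhibitors of metalloproteinases Timp1, Timp2 and Timp3. They were chosen by gene symbol from the 19938 genes that the array's annotation names singly, and each of the 10 was read by 1 probe set. The cells were mouse macrophages (C57BL/6N) grown from bone marrow in 10 ng/mL M-CSF and harvested on day 9. M1 cells received 10 ng/mL interferon-γ for 48 h and M2 cells 20 ng/mL interleukin-4 for 48 h. Each phenotype was then kept for 24 h with vehicle or with 10 ng/mL interleukin-1α (IL-1α), a cytokine that activates NF-κB through its receptor. The 4 groups, M1 and M2 each with vehicle and each with IL-1α, were measured on 1 Affymetrix array apiece, so no level or difference between arrays has a standard deviation. The study asked how far M1 and M2 cells differ in their response to IL-1α.

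Matrix metalloproteinases (MMPs) are zinc-dependent endopeptidases that cut collagens, elastin, fibronectin and other matrix proteins, and also shed or trim cytokines and receptors. Most are secreted as inactive zymogens that other proteases activate, and a few, such as the product of Mmp14, are held in the cell membrane. TIMPs bind the active site and block it. Macrophages are a main source of both in inflamed and remodelling tissue, and Mmp12 is named for them as macrophage elastase. An mRNA level gives neither the amount nor the activity of the enzyme.

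Signals, and the differences between them, are on the log2 scale; folds are marked as such. The median signal over all genes and arrays, 7.62, was used as a floor, below which a level was not taken as above background. All 10 genes reached it on at least 1 array. Mmp2, Mmp9, Mmp12, Mmp13, Mmp19, Timp1 and Timp2 reached it on all 4, Mmp14 on 3, and Mmp8 and Timp3 on 1 each. To count as higher or lower, a gene had to differ by 2-fold or more (1 log2 unit) and to be at the floor in 1 or more of the groups compared.

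The phenotypes carried the markers of their labels. All 6 M2 markers measured (Arg1, Retnla, Chil3, Mrc1, Egr2 and Mgl2) stood at least 2-fold above M1 with vehicle, and 5 of 6 M1 markers (Nos2, Cxcl9, Cxcl10, Gbp4 and Irf1, not Ciita) were at least 2-fold lower. All 9 macrophage markers measured reached the floor on the M1 arrays and 8 of 9 on the M2 arrays, where Aif1 did not. Their levels were not equal, since 3 of the 9 (Fcgr1, Cd14 and Aif1) were at least 2-fold lower in M2 under vehicle. That compares with 6.83% of 10489 genes, and 0 of the 9 were higher by that much. Under IL-1α Mertk was lower as well.

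The polarisation of the cells separated the family. Under vehicle, Mmp12, Mmp9, Timp2, Mmp19 and Mmp8 exceeded their M1 levels by 2-fold or more and Mmp14 was at least 2-fold lower. Mmp13 and Timp1 differed by less than 2-fold, Mmp2 read nearly the same, and Timp3 was under the floor in both vehicle groups. So 5 of the 10 were higher and 1 was lower, against 7.03% of 10489 genes higher and 6.83% lower. The 10 genes were chosen with earlier results of these arrays known, so their count is a description and not a sample of the genome. Under IL-1α, 4 of the 10 (Mmp12, Mmp9, Timp2 and Mmp19) exceeded M1 by 2-fold and Mmp14 was lower, against 8.15% of 10479 genes higher and 6.06% lower. The sign of the M2 minus M1 difference was the same under IL-1α as under vehicle in all 10.

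**Figure D1:**
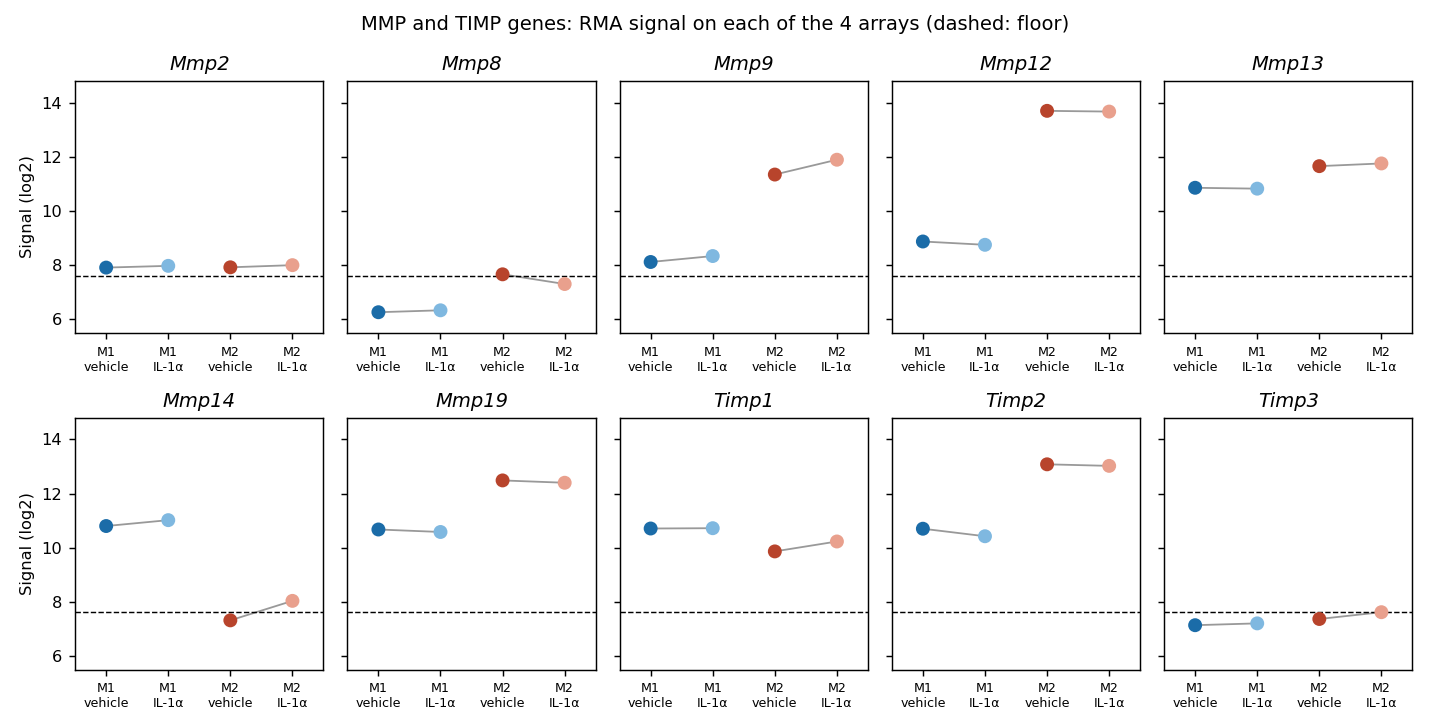
Signal (log2, y axis) of each MMP and TIMP gene on the 4 arrays (x axis), with 1 point per array, a grey line joining vehicle to IL-1α within a phenotype and a dashed line at the floor of 7.62. The M1 (blue) and M2 (red) points are far apart for Mmp9, Mmp12, Mmp14 and Timp2, whereas the steps from vehicle to IL-1α are short, the longest being 0.72 for Mmp14 in M2.

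Mmp12, which encodes macrophage elastase, showed the largest difference of the 10. It read 8.88 in M1 vehicle, 8.76 in M1 IL-1α, 13.70 in M2 vehicle and 13.67 in M2 IL-1α. Both M2 arrays were far above both M1 arrays, and all 4 levels were above the floor. Mmp12 was 28.3-fold higher in M2 under vehicle (4.82) and 30.2-fold higher under IL-1α (4.92). In the vehicle comparison it held rank 12 of 10489 genes by upward difference. On the M2 arrays Mmp12 lay 0.77 and 0.79 below the brightest probe set, and whether this closeness to the top limited its response to IL-1α was not tested.

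Mmp13, which encodes the interstitial collagenase-3, lies beside Mmp12 on mouse chromosome 9 and differed in the same direction by less than 2-fold. Its signals were 10.86 and 10.83 on the M1 arrays and 11.66 and 11.76 on the M2 arrays, with vehicle given before IL-1α. The M2 levels were above the M1 levels by 0.80 under vehicle (1.74-fold) and by 0.93 under IL-1α (1.91-fold), short of 2-fold each time. Mmp8, which encodes the neutrophil collagenase, read 6.27 and 6.34 in M1 and 7.67 and 7.31 in M2. Its vehicle difference was 1.40 (2.64-fold), but only the M2 vehicle level reached the floor, by 0.05, so the size is uncertain. Under IL-1α neither Mmp8 level reached the floor and the difference was 0.97.

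RefSeq places Mmp13, Mmp12 and Mmp8 in one block of 10 MMP genes on chromosome 9 with no other protein-coding gene between them, and all 10 were measured. In chromosome order the M2 minus M1 differences under vehicle were 0.80 for Mmp13, 4.82 for Mmp12, -0.02 for Mmp1b, 0.04 for Mmp3, 0.03 for Mmp1a, 0.02 for Mmp10, 1.40 for Mmp8, 1.27 for Mmp27, 0.15 for Mmp20 and 0.08 for Mmp7. Mmp12, Mmp8 and Mmp27 were thus past 2-fold under vehicle, and 4 genes between Mmp12 and Mmp8 were under the floor on all 4 arrays. Mmp20 and Mmp7, at the far end, were under the floor as well. Mmp27 reached the floor on the M2 arrays only, at 8.32 with vehicle and 8.34 with IL-1α, against 7.05 and 6.82 in M1.

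**Figure D2:**
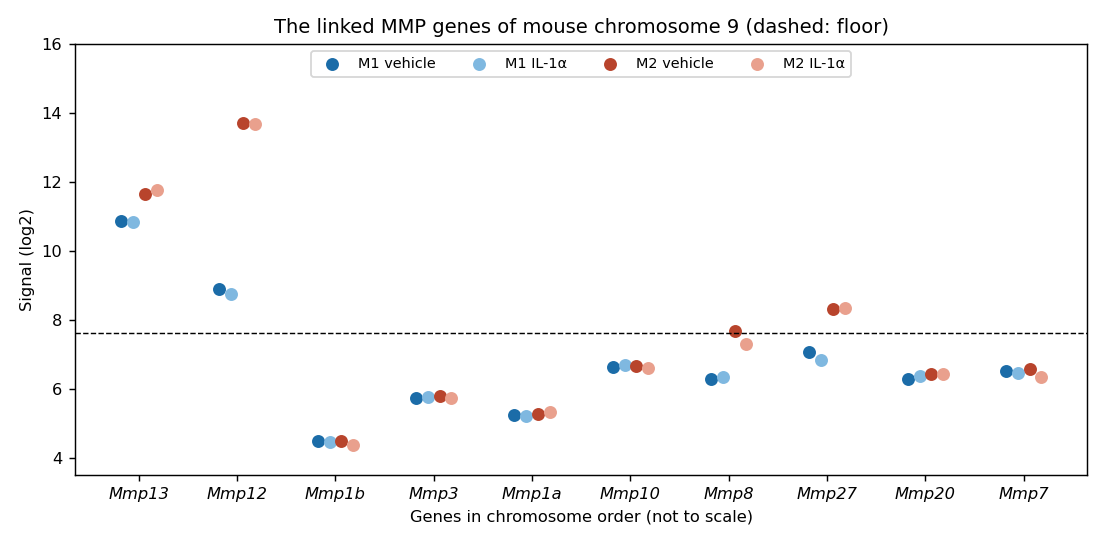
Signal (log2, y axis) of the 10 MMP genes of the chromosome 9 block in chromosome order (x axis, not to scale), with 1 point per array and a dashed line at the floor of 7.62. Mmp13 and Mmp12 are above the floor on all 4 arrays, Mmp8 and Mmp27 cross it only in M2, and the other 6 genes lie below it on every array.

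The promoter windows of Mmp12 and Mmp13 are shown because these neighbours read above their M1 levels in M2, past 2-fold for Mmp12 only, and that of Mmp14 because it was the member lower in M2. They are the bases before an annotated start in RefSeq (GRCm38.p6, + strand, 5′ to 3′). The capitals mark matches to the AP-1 motif TGANTCA, the site of Jun and Fos dimers that is a textbook element of MMP promoters. For Mmp12, which has 2 annotated starts, the window of the downstream start is printed, where the match lies. The window of the upstream start held 0 matches. So did the windows, not printed, of Mmp8 and Timp2, genes also more than 2-fold higher in M2 under vehicle. Whether a match goes with the M2 minus M1 difference was not tested.
Mmp13, chr9:7272264-7272513: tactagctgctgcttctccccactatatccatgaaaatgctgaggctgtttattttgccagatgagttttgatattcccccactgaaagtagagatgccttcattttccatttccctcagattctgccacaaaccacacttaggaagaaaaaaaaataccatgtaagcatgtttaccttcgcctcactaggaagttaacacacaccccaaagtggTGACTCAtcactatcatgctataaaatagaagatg
Mmp12, chr9:7347124-7347373: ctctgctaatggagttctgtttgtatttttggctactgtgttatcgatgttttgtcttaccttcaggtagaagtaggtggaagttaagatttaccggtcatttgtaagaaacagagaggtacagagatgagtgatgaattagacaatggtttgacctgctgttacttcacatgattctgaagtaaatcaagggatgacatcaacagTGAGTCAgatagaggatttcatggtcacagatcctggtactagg
Mmp14, chr14:54431348-54431597: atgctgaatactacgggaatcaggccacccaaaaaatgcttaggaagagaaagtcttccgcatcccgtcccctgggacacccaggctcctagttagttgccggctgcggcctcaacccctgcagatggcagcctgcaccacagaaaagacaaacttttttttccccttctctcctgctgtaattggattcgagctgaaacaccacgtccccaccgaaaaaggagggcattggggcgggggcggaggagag

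Of the 10 genes, 7 had a promoter in the table, with 8 windows of 250 bases before and 50 after a start. The motif TGANTCA, which reads as itself on both strands and was counted once, was found in 2 of the 8 windows, against 7.81% of 32851 promoters of that length. Its first base lay at -35 in Mmp13 and at -44 in Mmp12, counted from the annotated start (for Mmp12, the downstream start). The STAT motif TTCNNNGAA, which is also its own reverse complement, was in 0 of the 8 windows, against 8.3% of all promoters. TATAAA, on either strand, was in 3 of the 8 (Mmp8, Mmp12 and Mmp13), against 13.6%. The first base of the match lay at -3 in Mmp8, where it was on the minus strand, and at -16 in Mmp13. In Mmp12 it lay at 5, past the downstream start. None of these matches overlapped another. A match of letters is not a bound site, and no binding was measured here.

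Jun and Fos family genes were read beside these windows. Of the 7 measured, Fosb was under the floor in both vehicle groups. Of the others, Fosl2 was 2.18 higher in M2 under vehicle, Jun 0.79 higher and Jund 0.39 higher, whereas Fos was -0.71, Junb -0.57 and Fosl1 -0.28 relative to M1. Fosl2 was the 1 gene of these 6 past 2-fold. Among all 13 transcription factors of the list at the floor, Fosl2 and Pparg (2.20) were at least 2-fold higher and Irf8 (-1.37) was lower. Over all genes 7.03% were higher and 6.83% lower. The median of the 13 was -0.19.

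The gelatinases, which cut denatured collagen and basement membrane collagen, differed from one another. Mmp9, which encodes gelatinase B, read 8.12 in M1 vehicle, 8.34 in M1 IL-1α, 11.35 in M2 vehicle and 11.90 in M2 IL-1α. The M2 arrays were again well above the M1 arrays, by 9.36-fold under vehicle (3.23) and 11.8-fold under IL-1α (3.55). Within each phenotype the IL-1α array was the higher one. Mmp2, which encodes gelatinase A, read 7.92 and 7.98 in M1 and 7.93 and 8.01 in M2. Its 4 values spanned 0.09, the narrowest range of the 10 genes, and they lay 0.30 to 0.39 above the floor.

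Mmp14, which encodes the membrane-anchored MT1-MMP that activates the Mmp2 zymogen, ran opposite to the secreted enzymes that were higher in M2. It read 10.80 in M1 vehicle, 11.02 in M1 IL-1α, 7.32 in M2 vehicle and 8.04 in M2 IL-1α. It was 11.2-fold lower in M2 under vehicle (-3.48) and 7.88-fold lower under IL-1α (-2.98). The M2 vehicle level was under the floor, so the vehicle size is uncertain, while the IL-1α comparison had both levels above it. Mmp14 stood at rank 88 from the bottom among the 10489 genes of the vehicle comparison.

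Mmp19, an enzyme that cleaves basement membrane proteins, read 10.68 and 10.58 in M1 and 12.49 and 12.40 in M2. Its differences of 1.81 under vehicle (3.51-fold) and 1.82 under IL-1α (3.52-fold) were almost equal.

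The inhibitors did not follow one direction. Timp2, which blocks MMPs and at the cell surface also links the Mmp2 zymogen to the product of Mmp14, read 10.70 in M1 vehicle, 10.43 in M1 IL-1α, 13.08 in M2 vehicle and 13.02 in M2 IL-1α. It was 5.19-fold higher in M2 under vehicle (2.38) and 6.05-fold higher under IL-1α (2.60). Thus, of the 3 genes of this activation complex, Timp2 was higher in M2, Mmp14 was lower and Mmp2 differed by 0.01 under vehicle.

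Timp1, an inhibitor that also binds the Mmp9 zymogen, read 10.71 and 10.72 in M1 and 9.87 and 10.23 in M2. It stood below its M1 level by less than 2-fold, at -0.85 under vehicle and -0.49 under IL-1α. Timp3, a matrix-bound inhibitor that also blocks ADAM17, read 7.14 and 7.21 in M1 and 7.37 and 7.62 in M2. Only the M2 IL-1α level of Timp3 reached the floor, and the difference there was 0.41.

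**Figure D3:**
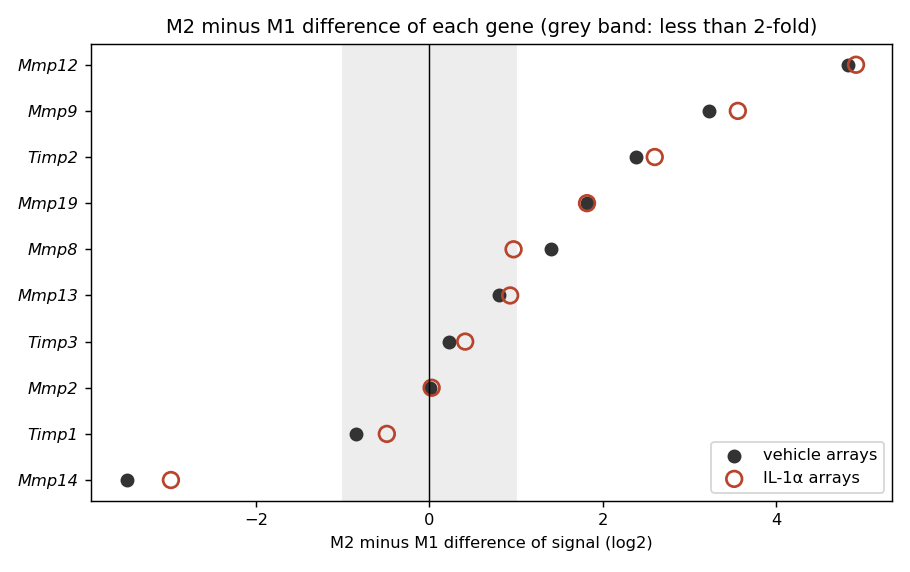
M2 minus M1 difference of signal (log2, x axis) for each gene (y axis), with filled points for the vehicle arrays and open circles for the IL-1α arrays; the grey band holds differences under 2-fold. The 2 marks of a gene lie close together, from Mmp14 at -3.48 and -2.98 to Mmp12 at 4.82 and 4.92.

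An additive limma model used all 4 arrays to test the phenotype difference common to both treatments. With 1 residual degree of freedom per gene, its yardstick is the departure of the 4 values from an additive pattern. That departure was mostly pooled over genes of similar signal (prior degrees of freedom 10.05), so a standard error is only in small part a gene's own. With 1 array per group, variation between cultures cannot be separated from a difference in response within it. The model called 6639 of 10625 genes (62.5%, with 33.2% higher in M2 and 29.3% lower), so a call by itself says little. Among the 10 genes it called 7 higher in M2 and 2 lower, and did not call Mmp2 (0.02 ± 0.10 SE, limma adjusted p = 0.891). The effect of Mmp12 was 4.87 ± 0.06 SE with a limma adjusted p of 1.72e-13. That of Mmp9 was 3.39 ± 0.09 SE and that of Timp2 2.49 ± 0.06 SE. Mmp14 was at -3.23 ± 0.11 SE and Timp1 at -0.67 ± 0.09 SE, with limma adjusted p of 3.48e-05 for Timp1. The weakest call was Timp3 at 0.32 ± 0.11 SE (limma adjusted p = 0.0253), a gene that was above the floor on 1 array. That was the M2 IL-1α array, and Mmp8 reached the floor on the M2 vehicle array alone. Both genes thus entered the test only through an M2 array, which favours a call of higher in M2.

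The rest of the family was mostly under the floor. Of 16 other MMP and TIMP genes measured, 14 were under it on all 4 arrays, including Timp4, the stromelysin genes Mmp3 and Mmp10 and the matrilysin gene Mmp7. The exceptions were Mmp27, described above, and Mmp25, which encodes a membrane-anchored MMP of leukocytes. Mmp25 read 9.80 in M1 vehicle, 9.60 in M1 IL-1α, 6.92 in M2 vehicle and 7.05 in M2 IL-1α. Like Mmp14, the other membrane-anchored gene at the floor, it was lower in M2, by 2.89 under vehicle on the log2 scale. Its M2 levels were under the floor.

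Activators, docking partners and inhibitors of MMPs were read next, in a list that also held the procollagen processing gene Pcolce. Of its 19 genes measured, 9 reached the floor in the vehicle comparison. Of these 9, 3 stood above M1 by 2-fold, Pcolce included, and 2 below, where 7.03% and 6.83% of all genes did. Their median difference was 0.42, against 0.01 over all genes. Plaur, the urokinase receptor that focuses plasmin formation, was at 1.56, and Pcolce, an enhancer of procollagen processing, at 1.31. Furin, the convertase that activates membrane MMPs inside the cell, was at 1.07, while its substrate Mmp14 was at -3.48. Lcn2, whose product binds that of Mmp9, was at -2.38 where Mmp9 was at 3.23. Thbs1, a matricellular protein that binds MMPs, was at -1.24. The inhibitor Reck was under the floor on all 4 arrays.

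The related ADAM and ADAMTS metalloproteinases, listed together with the ADAM17 partner Rhbdf2, were counted the same way. Of 12 at the floor under vehicle, 1 was at least 2-fold higher, the versican-cleaving protease gene Adamts1 (2.02), and 1 was lower, Rhbdf2 (-1.03), near the shares over all genes of 7.03% and 6.83%. The median of the list was 0.17. Adam8, Adam9 and Adam17 were within 0.11 of their M1 levels.

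Among matrix proteins that MMPs cut, Fn1, which encodes fibronectin, was 4.70 higher in M2 under vehicle, close in size to Mmp12. Vcan, which encodes versican, was at -1.40. The other 14 of the 16 at the floor were within 2-fold, and the median was 0.20. The main fibrillar collagen genes read nearly alike in the phenotypes, with Col1a1 at 0.08, Col1a2 at 0.25 and Col3a1 at 0.24.

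**Figure D4:**
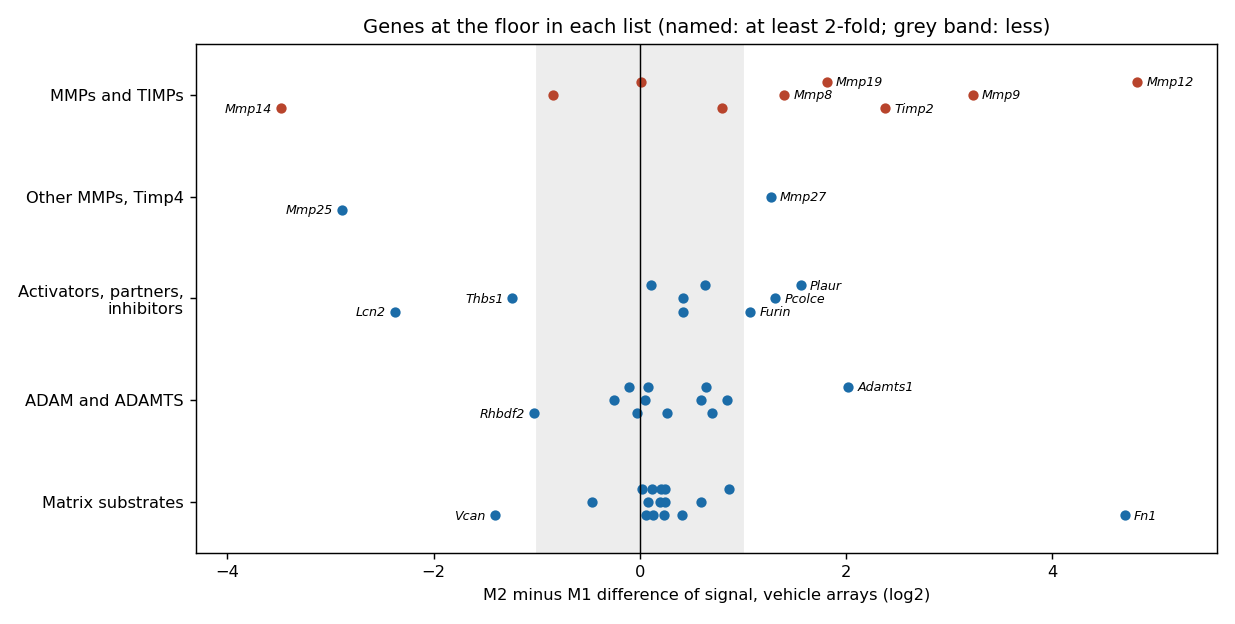
M2 minus M1 difference of signal under vehicle (log2, x axis) for the genes at the floor in each list (y axis, with vertical scatter for legibility only); genes past 2-fold are named. Mmp12 and Fn1 are farthest to the right, at 4.82 and 4.70, and Mmp14 and Mmp25 farthest to the left, at -3.48 and -2.89.

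Markers of other cells that make these enzymes also differed between the phenotypes. In bulk RNA, more cells of a type and more RNA per cell cannot be told apart. Of 11 neutrophil markers measured, 5 (Ngp, Ltf, S100a8, S100a9 and Mpo) reached the floor in M2 only, and their vehicle differences ran from 0.66 for Mpo to 2.52 for Ngp. Csf3r, the 1 neutrophil marker above the floor on all 4 arrays, differed the other way, by -0.52 under vehicle and -0.46 under IL-1α. The defining markers Ly6g, Camp, Elane and Cxcr2 were under it on every array. The mean signal of the neutrophil list was 7.09 in M1 vehicle, 7.14 in M1 IL-1α, 7.71 in M2 vehicle and 7.62 in M2 IL-1α. Mmp8 and Mmp9 are neutrophil granule genes as well, and the part of neutrophil RNA in their values was not tested.

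Osteoclasts, which arise from the same precursors, also make Mmp9 and Mmp14. Of 9 osteoclast markers measured, 7 were at the floor in the vehicle comparison. Of these 7, 6 were at least 2-fold higher in M2, against 7.03% of 10489 genes. Among them were Dcstamp (4.60), Itgb3 (4.16) and Ctsk (3.25), which reached the floor on the M2 arrays only and so entered the count through M2 alone. Nfatc1, above the floor on all 4 arrays, was at -0.26, and Calcr and Oscar were under the floor on all arrays. The mean of the osteoclast list was 8.44 in M1 vehicle, 8.41 in M1 IL-1α, 10.39 in M2 vehicle and 10.37 in M2 IL-1α. Its part in the Mmp9 difference was not tested. Of 10 fibroblast markers, read because stromal cells make Mmp2 and Timp3, 5 reached the floor on at least 1 array. The list had means of 7.29, 7.32, 7.55 and 7.63 in the same order, with Pdgfra, Pdgfrb, Lum and Thy1 under the floor on every array and Postn 1.74 higher in M2 under vehicle. Their part in the Mmp2 and Timp3 values was not tested. Of 7 dendritic cell markers, Clec9a (-4.35), Xcr1 (-1.96) and Ccr7 (-1.76) were lower in M2 under vehicle, with M2 levels under the floor, and Zbtb46 was at 0.48. Of 6 endothelial markers Vwf (3.32) was higher and Kdr (-1.33) lower. At the floor were 1 of 7 lymphocyte markers, Cd79b (0.40), and 1 of 6 mast cell and basophil markers, Hdc (-0.93).

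The response to IL-1α was small for every one of the 10 genes. In M1 none reached 2-fold, and 0 of 10012 genes did (0.0%). The largest M1 differences were those of Timp2 (-0.28), Mmp9 (0.22) and Mmp14 (0.22), and the smallest was that of Timp1 (0.01). For comparison, the M1 differences of all genes had a standard deviation over genes of 0.11. Upward differences as large as that of Mmp9 were seen in 222 genes, Mmp9 included.

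In M2 none of the 10 reached 2-fold, where 0.35% of 10284 genes were higher by that much and 0.0% lower. Mmp14 was the highest, going from 7.32 with vehicle to 8.04 with IL-1α (0.72, 1.65-fold), and 59 genes were at or above that difference. It was the 1 member past 1.5-fold, which 0.875% of genes were. The vehicle level of Mmp14 was under the floor, so its size is uncertain. Mmp9 followed, from 11.35 to 11.90 (0.55, 1.46-fold), with both levels far above the floor, and 103 genes were at or above its difference.

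Timp1 was 0.37 higher with IL-1α in M2 (1.29-fold) and Timp3 0.25 higher. Mmp8 was at -0.36, a step that ended under the floor, and 47 genes were as low or lower. Mmp12, Mmp13, Mmp19, Timp2 and Mmp2 were all within 0.10 of their M2 vehicle levels, against a median of 0.05 over all genes. Mmp12 and Timp2, both high in M2, were at -0.03 and -0.06 with IL-1α, whereas Mmp9, also high in M2, was at 0.55.

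**Figure D5:**
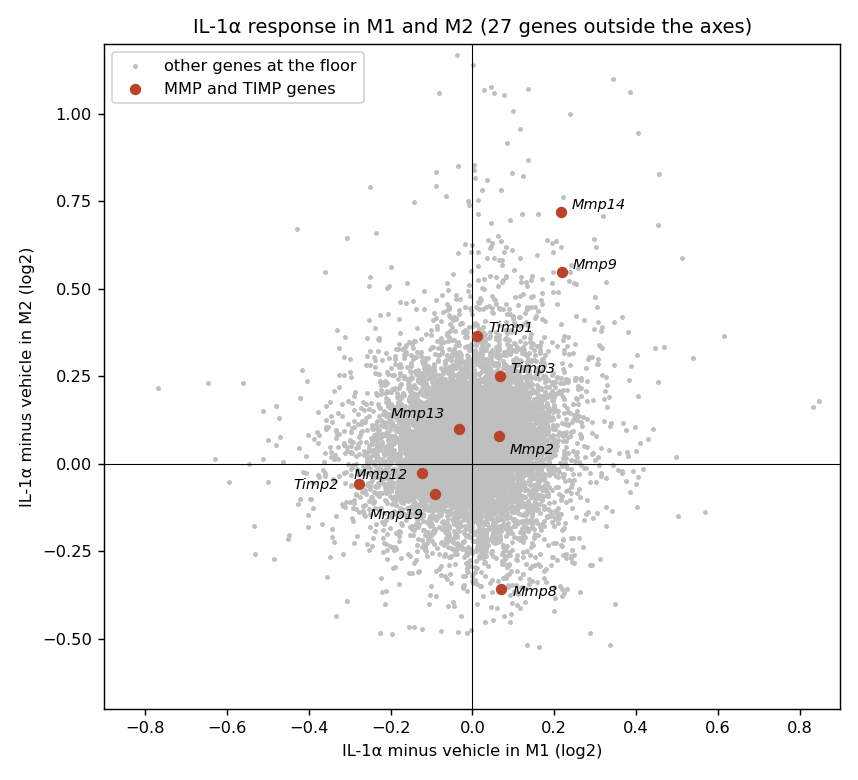
IL-1α minus vehicle difference (log2) in M1 (x axis) and in M2 (y axis) for the MMP and TIMP genes (red, named) and the other genes at the floor on at least 1 array (grey); 27 genes lie outside the axes. Mmp14 (0.22 and 0.72) and Mmp9 (0.22 and 0.55) stand above the cloud in M2, and Mmp8 (0.07 and -0.36) below it.

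The contrast that the study design names is the response in M2 minus the response in M1. It was 0.50 for Mmp14, 0.35 for Timp1, 0.33 for Mmp9, 0.22 for Timp2 and 0.18 for Timp3, and 0.13 or less for Mmp13, Mmp12, Mmp2 and Mmp19. Mmp8 alone was below 0, at -0.43. The median over all genes was itself above 0, at 0.06. None of the 10 reached 1 or -1, where 0.32% of 10625 genes were at least 1 and 0.0% at most -1. The M2 minus M1 difference was thus nearer to 0 on the IL-1α arrays than on the vehicle arrays for Mmp14, Timp1 and Mmp8. It was farther from 0 for all the other members, most for Mmp9 and least for Mmp19. Each such shift rests on single arrays. With 4 arrays there is no degree of freedom left to test this contrast.

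The additive limma model called no IL-1α effect common to both phenotypes, in these 10 or in any of the 10625 genes (0.0%). Without adjustment, 646 genes had a p under 0.05, and 3 of them were Mmp9, Mmp14 and Timp2. The common effect was 0.38 ± 0.09 SE for Mmp9 and 0.47 ± 0.11 SE for Mmp14, each with a limma adjusted p of 0.473, and -0.17 ± 0.06 SE for Timp2 with a limma adjusted p of 0.656.

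Of the other lists, Bgn, which encodes the proteoglycan biglycan, was at 0.52 with IL-1α in M2 and 0.33 in M1, and Rhbdf2 was at 0.46 and 0.06. Mmp25 was at -0.20 in M1, and its M2 levels were under the floor. No gene of the 4 lists reached 2-fold with IL-1α in either phenotype.

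Genes with the most similar pattern were sought for the 6 members whose values spanned at least 1 unit (Mmp8, Mmp9, Mmp12, Mmp14, Mmp19 and Timp2). Likeness was the Euclidean distance, in log2 units, between the 4 values after subtracting each gene's own mean, over 1691 candidate genes. With 4 arrays, the distance mainly reflects the phenotype difference. For Mmp9 the nearest were the STAT target Cish (0.17), the phosphatase gene Dusp4 (0.21) and the zinc transporter gene Slc30a4 (0.25), each higher in M2 and higher again with IL-1α in M2. For Mmp14 they were Spic (0.14), Trim30d (0.18) and Slfn8 (0.23), each lower in M2 and 0.52 to 0.64 higher with IL-1α in M2. The M2 levels of Spic, 6.88 with vehicle and 7.53 with IL-1α, were both under the floor, so its size is uncertain.

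For Mmp12 the nearest were Lipn (0.09), Tmem267 (0.19) and Penk (0.29), and for Mmp19 Slc46a3 (0.01), Steap3 (0.05) and E2f8 (0.07). Timp2 was nearest to Gprc5c (0.06), the V-ATPase subunit gene Atp6v0d2 (0.11) and Cks1b (0.13). Mmp8, whose profile lay mostly under the floor, was nearest to Thbd (0.07), Spata25 (0.08) and Npas4 (0.11). None of the nearest genes was another MMP or TIMP gene.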

How the data were processed

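RNA of the 4 groups was hybridised to Affymetrix mouse gene arrays, 1 per group; groups follow the source names. What the authors deposited is a table of log2 signals, 1 per probe set, made by RMA (Affymetrix Expression Console is named in the submitters' processing notes). The log base was inferred from the range of the values, and the software versions are not given in the sources used here. RMA in general quantile-normalises arrays, which removes global differences and compresses those of dim probe sets. Of 35556 rows, 21789 had 1 gene in GEO's platform annotation (21698 matched RefSeq by Entrez number), 1621 had several and 12146 none. Rows with 1 gene were averaged to 19938 genes, and 10625 of these were at the floor on 1 or more arrays.

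A difference between 2 arrays carries no p-value. In limma 3.58.1 under R 4.3.3, lmFit with additive terms for phenotype and treatment was followed by trended eBayes (prior degrees of freedom 10.05), and p-values were adjusted by Benjamini-Hochberg over 10625 genes, with a threshold of 0.05. Since no label ties arrays to separate cultures, these p-values rest on the arrays alone, whose number limits the precision. The phenotype steps alone were tested on simulated data, in which 200 genes carried a known phenotype effect. No IL-1α effect, difference in response or variation between cultures was simulated.

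The members, the 5 pathway lists and the 10 marker lists (168 of 180 listed symbols measured, the rest not analysed here) were chosen with earlier results of these data known. Named genes were the 10 members, up to 4 genes per list and comparison by size of difference, and the 3 most similar genes of each member spanning 1 unit. Jun and Fos family genes, the neighbours of Mmp12, genes near their M1 level, markers and fibrillar collagen genes were named besides, after their values were seen. The alternatives tried were a threshold of 1.5-fold, a floor at the 75th percentile (9.63) or none, array scaling by loess or by quantiles, keeping the brightest probe set, and eBayes with no trend.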

Additional observations from a re-analysis of the deposited data

Results flagged for a closer look

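Mmp8 and Mmp13 were picked out because their IL-1α differences had opposite signs in M1 and M2. The M2 response less the M1 response was -0.43 for Mmp8 (0.07 in M1 and -0.36 in M2), with 3 of its 4 levels under the floor. It was 0.13 for Mmp13 (-0.03 in M1 and 0.10 in M2), with all levels above the floor. Each sign rests on 1 array against 1, and the differences were not tested.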

How the results depend on the processing

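The 50 member differences recomputed under loess centring and the 50 under a further quantile normalisation kept their call, with no called gene changing sign; the brightest probe set could change none, since each member has 1. Mmp8 under IL-1α reached 1.05 with loess centring and 1.06 after quantile normalisation, with its levels still under the floor, and the 75th percentile floor ended its vehicle call (5 members in place of 6). The largest shift was 0.11, for Mmp8. The M2 response of Mmp19 less its M1 response changed sign, from 0.01 to -0.02 with loess centring and -0.01 after quantile normalisation. The threshold mattered for IL-1α in M2, where 0 members passed 2-fold and 1 passed 1.5-fold (Mmp14). At 1.5-fold, 8 members passed in the vehicle comparison of M2 with M1 and 6 under IL-1α, against 6 and 5 at 2-fold. The count of members that limma called for phenotype ran from 7 to 9 over the alternatives, with 7 where the 75th percentile floor left Mmp2, Mmp8 and Timp3 out. With the brightest probe sets Timp3 was not tested, because it fell under the floor of that setting. The limma adjusted p of Timp3 ran from 0.0111 to 0.0407 over the settings that tested it. For IL-1α, limma called 0 of all genes in each setting except the 75th percentile floor, with 1 gene that is no member. Over the members, the smallest adjusted p was 0.21 for Mmp9. No replicate could be left out, and no paired analysis was possible because each group holds 1 array.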
